A study of Zea mays and Triticum urartu with 3 samples.

Results

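Loci encoded by the maize mitochondrial genome were followed in an anti-CENH3 RNA immunoprecipitation (RIP) library and in its input library. All loci whose listed chromosome was Mt were taken, which gave 132 loci in RIP and 139 in input, or 271 of the 136722 loci listed in the whole series. The series held 3 libraries, with 45374 loci listed for RIP, 46011 for input and 45337 for a wheat library (TMU38, *Triticum urartu*) that is not described further. Both maize libraries came from young leaves of the inbred line B73, and both labels give the same chromatin preparation with a digestion by DNase I. They differed in that RNA of the RIP library was recovered with an antibody against CENH3, the form of histone H3 found in centromeric nucleosomes, and the input label names no antibody. Each group was 1 library, so there is no replicate check, no test was made, and intervals cover counting error only.

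The mitochondrial genome of plants encodes ribosomal RNAs and tRNAs, some ribosomal proteins, and core subunits of the respiratory chain complexes and of ATP synthase. It also carries proteins for cytochrome c maturation, an intron maturase, many open reading frames (orfs) of unknown function and copies of chloroplast sequence. These RNAs are made and translated inside the organelle, outside the nucleus in which CENH3 nucleosomes lie.

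The tables named the annotated loci by identifier only. Of 106 annotated mitochondrial identifiers, 85 had exactly the start and end of a mitochondrial gene in RefSeq (Zm-B73-REFERENCE-NAM-5.0), and 93 shared at least an end. These coordinates gave the gene names used below, and a locus was taken to hold a gene when at least 0.5 of the gene lay inside it. Of 36 genes of known function that were looked for, 26 were held by a locus above 0 in RIP, 23 in input and 22 in both. These counts leave out loci longer than 20 kb, here a single input locus of 93343 bp that spans ccmB and other genes. With that locus left out, the 9 held by no locus above 0 in either library were nad1, both copies of atp1, atp6, atp9, ccmC, ccmFC, rps2B and rrn5. The identity of the loci therefore went with their label, with rRNA, respiratory chain and ribosomal protein genes of the mitochondrion among them. Positions are those of B73 RefGen_v4 as the tables give them.

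Mitochondrial loci took a larger part of the fragments at listed loci in RIP than in input. FPKM (fragments per kb, scaled to the size of the library) was above 0 at 98 of the 132 RIP loci (74.2%, against 60.7% of all RIP loci) and at 70 of the 139 input loci (50.4%, against 40.9%). The median FPKM of those above 0 was 1.62 in RIP and 12.2 in input, beside 0.0900 and 2.44 over all loci. How many fragments stood behind a value was implied by its deposited upper limit, taken as lying 2 standard deviations above the value. By this count the mitochondrial loci held 15974 of the 472295 fragments at all listed RIP loci, or 3.38% (95% Wilson interval 3.33% to 3.43%). In input they held 3214 of 744100, or 0.432% (0.417% to 0.447%). Such totals are implied for listed loci and are not the sequenced libraries, for which the paper reports far more merged fragments. RIP thus had 4.97 times the mitochondrial fragments of input, while over all loci it had 0.635 times as many and over nuclear loci 0.636. A single locus decided the last ratio, which was 1.24 when the nuclear locus with the most fragments was left out of each library.

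Most of these fragments came from few loci. The top 5 mitochondrial loci by fragments held 80.4% of that total in RIP and 71.0% in input. When rrn26 and the chloroplast-like loci described below were left out, the mitochondrial share was 0.914% in RIP (0.887% to 0.942%) and 0.150% in input (0.142% to 0.159%), and RIP had 3.77 times the fragments of input. The higher share in RIP was therefore also seen outside the most abundant loci.

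Loci of both libraries that overlapped were merged into 121 regions, so that each gene could be compared although the assembled loci had other ends in each library. A single input locus of 93343 bp (Mt:328234-421576) was kept apart. It had 33.3 FPKM (25.5 to 41.1) from 73.1 fragments, spans the chloroplast-like loci, cox1 and rrn26 described below, and ends at the last base of the rrn18 locus. With it left out, 48 of the regions were above 0 in both libraries, 46 in RIP only, 5 in input only and 22 in neither. It spans some of the 46, that of ccmB among them. Apart from it, the other library listed no locus at 13 of the 46 and at 2 of the 5. The level of the other library there is therefore not known. With 20 or more fragments in both libraries together and values above 0 in both there were 36 regions, of which 35 had more fragments in RIP. The exact 95% interval of the ratio lay wholly above 1 in 30 of them and wholly below 1 in 0. Fragment ratios here and below are not scaled for sequencing depth, and the paper reports more merged fragments for RIP than for input. A ratio above 1 is therefore not by itself an excess in RIP. The median ratio of RIP to input fragments was 4.38 (quartiles 1.99 and 7.87). The ratio of all mitochondrial fragments, 4.97, rests mostly on rrn26, and was 3.77 without rrn26 and the chloroplast-like loci. Set against 4.97, the interval lay wholly above it in 8 regions and wholly below it in 14. The regions thus did not share 1 ratio, by more than counting error. Since RIP loci were often longer, the ratio was also taken per kb of the loci above 0, where its median was 2.82 (1.70 and 5.70). On that scale the interval lay wholly above 1 in 27 of the 36 regions and wholly below 1 in 1.

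**Figure D1:**
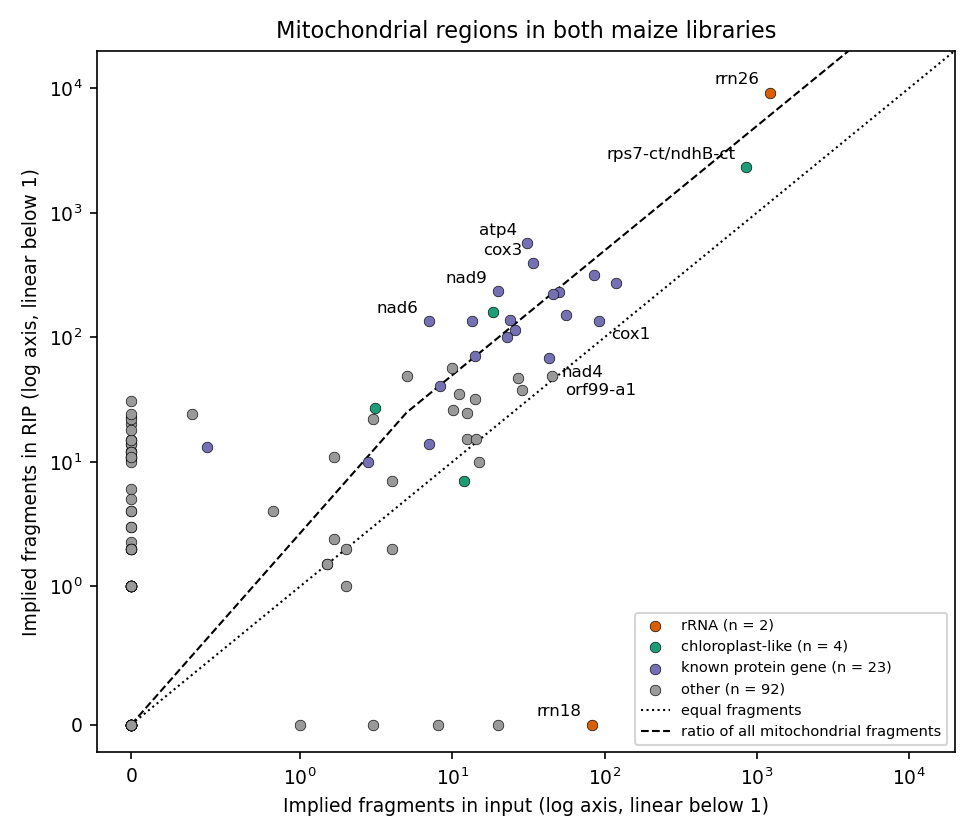
Implied fragments of each of the 121 mitochondrial regions in input (horizontal) and RIP (vertical), both on axes that are logarithmic above 1 and linear below, with 1 library each. Most regions lie above the dotted line of equal fragments, the dashed line is the ratio of all mitochondrial fragments (4.97), and rrn18 lies on the input axis.

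Ribosomal RNA made up the largest class in both libraries. The locus of rrn26, the large-subunit rRNA of the mitochondrial ribosome (Mt:400085-403753 in RIP and Mt:400245-403754 in input), had 106 FPKM in RIP (limits 104 to 108) and 172 FPKM in input (162 to 182). It held 9233 fragments in RIP, or 57.8% of the mitochondrial fragments (57.0% to 58.6%), and 1216 in input, or 37.8% (36.2% to 39.5%). The ratio of fragments, 7.59 (7.15 to 8.07), lay above that of all mitochondrial fragments, of which rrn26 is itself the largest part. FPKM, by contrast, was lower in RIP. FPKM and fragments pointed in different directions at many other loci too, and their scale is described below.

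The small-subunit rRNA had a value in input only. The input locus of rrn18, the small-subunit rRNA (Mt:419776-421576), had 30.7 FPKM (23.9 to 37.5) and 82.2 fragments. RIP listed no locus there, so its level in RIP is not known and no ratio is given. In input the long locus that ends at the same base had fragments of its own, and how reads were shared between both was not tested. No locus of either library held rrn5, the third rRNA gene of the genome. Depletion of rRNA with a commercial kit is stated for the RIP sequencing and is not stated separately for input, and its part in the rRNA values was not tested.

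Loci in chloroplast-like sequence formed the next class. Their RefSeq names end in -ct, and 4 regions held 15.9% of the mitochondrial fragments in RIP (15.3% to 16.4%) and 27.5% in input (25.96% to 29.04%). Nearly all of this lay in 1 locus with identical ends in both libraries (Mt:330767-335518), which holds rps12-ct and rps7-ct, genes of plastid ribosomal proteins, and ndhB-ct, of the plastid NDH complex. It had 91.6 FPKM in RIP (87.8 to 95.4) and 110 FPKM in input (102 to 117). Its fragments numbered 2337 in RIP and 849 in input, a ratio of 2.75 (2.54 to 2.98) that lies below that of all mitochondrial fragments.

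The other chloroplast-like regions were smaller and unlike each other. The region of rps19-ct, trnH-ct and orf137-a-ct had 161 fragments in RIP and 18.5 in input, a ratio of 8.71 (5.48 to 15.5). It was made of overlapping loci, of which the longer had 7.10 FPKM in RIP (5.57 to 8.63) and 7.64 FPKM in input (4.09 to 11.2). The shorter, GRMZM5G861353 (Mt:347110-347523), had 19.8 FPKM in RIP (15.2 to 24.4) from 75 fragments. Input listed it at 0, although the longer locus over it was above 0 there. The locus of orf131-b-ct had 17.7 FPKM in RIP (10.9 to 24.6) and 8.50 FPKM in input (0 to 18.1). The locus of orf109-b-ct went the other way, with 5.65 FPKM in RIP (1.38 to 9.91) from 7 fragments and 58.8 FPKM in input (24.9 to 92.8) from 12.

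These sequences have near copies in the chloroplast genome, from which reads cannot be told apart with certainty. In input, both chloroplast copies of ndhB were listed low, with 3.08 FPKM (1.13 to 5.03) and 3.10 FPKM (1.14 to 5.06) from about 10 fragments each, and a chloroplast locus of rps7 had 12.1 FPKM (7.31 to 16.9). Other chloroplast loci with these genes were higher, with 29.7 FPKM (23.8 to 35.7) at GRMZM5G806488, a long locus that also holds rps7, and 128 FPKM (120 to 137) at GRMZM5G804708, which holds rps12 among other genes. The mitochondrial locus at 110 FPKM in the same library was thus above the chloroplast loci of ndhB and rps7. It was not above GRMZM5G804708, but that locus lies apart from ndhB and rps7 in the chloroplast sequence. Whether GRMZM5G804708 holds the part of rps12 that lies beside rps7-ct in the mitochondrion was not tested. No chloroplast locus was in the RIP table used here, against 54 in input. How reads were shared between the organelles was not tested.

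**Figure D2:**
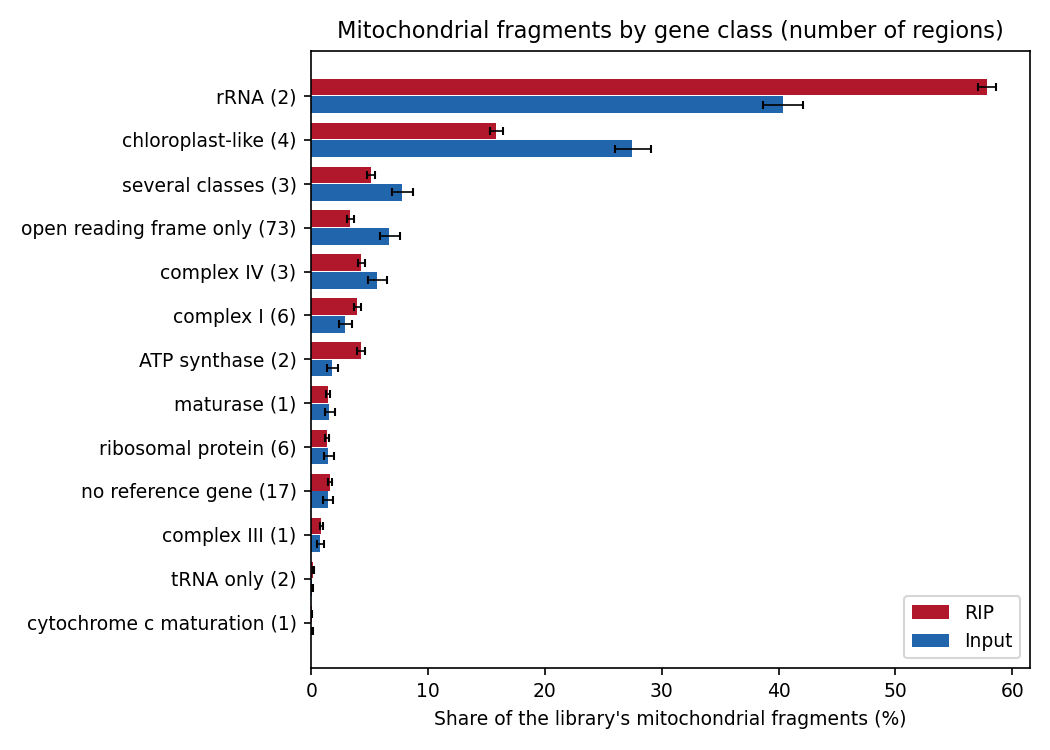
Share of each library's mitochondrial fragments (horizontal, %) by class of the region, with the number of regions in parentheses. Bars are single libraries with 95% Wilson intervals for counting error. rRNA takes 57.8% in RIP and 40.4% in input, and chloroplast-like sequence 15.9% and 27.5%.

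The ATP synthase genes had many more fragments in RIP, over longer loci. Their 2 regions held 4.27% of the RIP mitochondrial fragments (3.96% to 4.59%) and 1.77% of those in input (1.37% to 2.29%), a ratio of fragments of 11.95 (9.11 to 15.9). The region of atp4, a subunit of the membrane part of the enzyme, had 568 fragments in RIP and 31 in input, a ratio of 18.3 (12.8 to 27.2). In RIP these came from 1 assembled locus of 5501 bp (Mt:136218-141718) with 9.001 FPKM (8.25 to 9.76). In input they came from annotated loci of atp4 (21.9 FPKM, 11.9 to 32.0, from 19 fragments) and orf99-d (73.4 FPKM, 31.0 to 116, from 12 fragments). The input loci covered 960 bp. Per kb of the loci RIP had 103 fragments and input 32.3, a ratio of 3.20 (2.23 to 4.75). Its interval lay wholly below that of cox3 given further on and overlapped those of nad6 and cob.

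The region of atp8, a small membrane subunit, had 114 fragments in RIP and 26 in input, a ratio of 4.37 (2.84 to 6.997), and 3.26 per kb. It includes orf121-b, which was at 0 FPKM in RIP and at 9.01 FPKM in input (0 to 19.4) from 3 fragments.

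Complex I genes, which encode subunits of NADH dehydrogenase, covered a wide range of ratios. Together the 6 regions assigned to complex I alone held 3.94% of the mitochondrial fragments in RIP (3.65% to 4.25%) and 2.85% in input (2.34% to 3.50%). Of those above 0 in both libraries, the highest ratio was that of nad6, with 134 fragments in RIP and 7 in input, a ratio of 19.1 (9.04 to 48.5), and 6.73 per kb (3.18 to 17.1). The region of nad9 had 236 fragments in RIP and 20 in input, a ratio of 11.8 (7.47 to 19.7). Its RIP locus of 2335 bp had 10.4 FPKM (9.08 to 11.8) and its input locus of 573 bp, the gene itself, had 36.0 FPKM (19.9 to 52.2), and per kb the ratio was 2.90 (1.83 to 4.83).

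The region of nad2 had 135 fragments in RIP and 13.4 in input, a ratio of 10.1 (5.87 to 20.01), and 5.14 per kb (2.99 to 10.2). Its RIP locus had 1.91 FPKM (1.58 to 2.24), and the input locus paired with it, which held orf101-c and orf186 but less of nad2, had 3.21 FPKM (1.46 to 4.96). The lowest ratio among them was that of nad4, with 68 fragments in RIP and 43 in input, a ratio of 1.58 (1.06 to 2.37) on both scales. Per kb, the interval of nad4 lay below those of nad6 and nad2 and overlapped that of nad9.

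For nad4 the loci with the gene's own ends had 7.10 FPKM in RIP (5.38 to 8.82) and 5.32 FPKM in input (2.48 to 8.17). In input, 2 short assembled loci inside the gene had further fragments, with 34.5 FPKM (17.2 to 51.7) from 16 and 65.1 FPKM (29.0 to 101) from 13. The region of nad7 had 40.7 fragments in RIP and 8.31 in input, a ratio of 4.89 (2.37 to 12.7). The locus of nad4L had 1.62 FPKM in RIP (0.785 to 2.46) from 15 fragments, with an input locus at 0.

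The remaining complex I genes lay in regions shared with other classes. The region of nad5 and ccmC had 274 fragments in RIP and 118 in input, a ratio of 2.32 (1.86 to 2.91) and 1.12 per kb. Loci overlap each other in this region, and the locus of ccmC itself, for heme delivery to cytochrome c, was at 0 in both libraries. Within it, the paired loci at orf105-c had 4.90 FPKM in RIP (3.91 to 5.90) and 12.2 FPKM in input (7.50 to 16.9). The region of rps12 and nad3 was 1 RIP locus of 5296 bp with 318 fragments and 3.03 FPKM (2.69 to 3.36). In input the same stretch was 6 loci of 12.2 to 63.9 FPKM with 84.7 fragments together, which gives a ratio of 3.75 (2.94 to 4.81).

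Complex III and complex IV genes also differed in their ratios. The locus of cob, which encodes cytochrome b, had identical ends in both libraries (GRMZM5G884707, Mt:310906-312072) and therefore the same length. It reached 15.3 FPKM in RIP (12.7 to 18.0) from 137 fragments and 13.5 FPKM in input (7.98 to 19.0) from 24, a fragment ratio of 5.71 (3.68 to 9.21). The FPKM limits of cob overlapped.

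Of the cytochrome c oxidase subunits of complex IV, cox3 was by fragments much higher in RIP than cox1 and cox2 relative to input. The cox3 loci (Mt:441542-442755 in RIP, Mt:441570-442510 in input) had 36.8 FPKM in RIP (33.1 to 40.5) and 21.8 FPKM in input (14.3 to 29.3), with limits that did not overlap. Fragments were 394 in RIP and 34 in input, a ratio of 11.6 (8.15 to 17.0), and 8.98 per kb (6.32 to 13.2).

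The cox2 loci reached 14.2 FPKM in RIP (11.9 to 16.5) from 152 fragments and 30.1 FPKM in input (22.0 to 38.2) from 55.5, a fragment ratio of 2.73 (2.02 to 3.83), and 2.71 per kb (2.00 to 3.80). The cox1 region had 136 fragments in RIP and 91.6 in input, a ratio of 1.49 (1.13 to 1.95), and 1.13 per kb (0.860 to 1.49). By fragments and by fragments per kb the intervals of cox1 and cox2 lay wholly below that of cox3, although all 3 genes encode subunits of 1 complex. By FPKM cox1 was not below cox3 in this way. Its RIP locus, which also held orf147-b, had 46.4 FPKM (38.4 to 54.3). The input locus that held cox1 had 22.5 FPKM (15.0 to 30.0) from 36 fragments. The other input fragments of the region lay at orf147-b, with 45.6 FPKM (24.1 to 67.1), and at a locus without a reference gene, with 25.2 FPKM (17.0 to 33.5).

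Genes of the translation and maturation machinery lay near the middle of the range. The region of mat-r, an intron maturase, and orf140-b had 231 fragments in RIP and 50 in input, a ratio of 4.62 (3.39 to 6.40), and 3.88 per kb (2.85 to 5.38). In RIP 1 locus held both, whereas in input 12 fragments lay at the locus of mat-r and 38 at that of orf140-b. The ratio is therefore not that of mat-r alone. The loci of rps1, for a small-subunit ribosomal protein, and ccmFN, for heme attachment to cytochrome c, reached 3.61 FPKM in RIP (3.13 to 4.10) from 223 fragments and 9.10 FPKM in input (6.42 to 11.8) from 46, a ratio of 4.85 (3.52 to 6.81), and 2.88 per kb (2.09 to 4.04). For rps2A the values were 2.32 FPKM in RIP (1.86 to 2.79) and 9.37 FPKM in input (5.46 to 13.3), with a fragment ratio of 4.39 (2.77 to 7.24), and 2.24 per kb (1.41 to 3.70). On both scales the intervals of mat-r with orf140-b, rps1 with ccmFN, and rps2A overlapped.

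The region of rpl16 and rps3 had 3.28 FPKM in RIP (2.51 to 4.06) and 3.97 FPKM in input (1.85 to 6.10), with a fragment ratio of 5.09 (2.83 to 9.74). For rps7, of the mitochondrion's own set, FPKM was 5.84 in RIP (2.72 to 8.97) and 11.7 in input (2.86 to 20.6), with 14 and 7 fragments. The locus of rps4 had 1.25 FPKM in RIP (0.461 to 2.04) and 1.69 FPKM in input (0 to 3.72). The locus of rps13 had 2.78 FPKM in RIP (0 to 5.99) from 3 fragments, with an input locus at 0. That of ccmB had 4 fragments in RIP and was listed at 0 in input, where the 93343-bp locus also spans it. The counts behind rps4, rps13 and ccmB are too low to give a direction.

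Regions that held only open reading frames were numerous and low. There were 73 of them, of which 48 were above 0 in RIP and 23 in input, with 3.34% of the mitochondrial fragments in RIP (3.07% to 3.63%) and 6.67% in input (5.85% to 7.57%). Their fragment ratio of 2.49 (2.12 to 2.93) lay below that of all mitochondrial fragments. Another 17 regions held no reference gene, with 257 fragments in RIP and 45 in input. At 12 of them input listed no locus other than the 93343-bp one, which spans some of them and entered no region. These 12 exist as regions through the RIP assembly alone, and no ratio is read from this sum.

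Several orf loci were much lower in RIP by FPKM, as were most pairs of maize loci. The locus of orf99-a1 had 1.87 FPKM in RIP (1.33 to 2.40) and 15.8 FPKM in input (11.1 to 20.5), with 48.9 and 45.4 fragments. Its near namesake orf99-a2 had 5.82 FPKM in RIP (3.93 to 7.70) and 38.8 FPKM in input (24.3 to 53.3), and orf110-c had 4.70 FPKM (2.29 to 7.12) and 38.8 FPKM (18.3 to 59.3). Their log2 FPKM ratios, taken as described below for pairs, were -2.55, -2.54 and -2.80 in this order. Over all maize pairs the median was -2.06 and the lower quartile -2.71. At orf99-a1, orf99-a2 and orf110-c the fragments were close to equal in both libraries, with ratios of 1.08 (0.712 to 1.67), 1.33 (0.787 to 2.20) and 1.06 (0.482 to 2.40).

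Above 0 in input only were orf302, with 6.58 FPKM (1.93 to 11.2) from 8 fragments, and orf129-b, with 8.81 FPKM (0 to 19.0) from 3. The lowest ratio was at a pair that held no reference gene (Mt:431167-431942 in RIP), with 1.25 FPKM in RIP (0.460 to 2.04) from 10 fragments and 22.7 FPKM in input (10.97 to 34.4) from 15. These are low counts, and the fragment ratio of this pair, 0.667, had an interval of 0.268 to 1.59.

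At the other end, orf131-a had 4.62 FPKM in RIP (0.488 to 8.76) from 5 fragments, orf100-a2 had 4.51 FPKM (0.827 to 8.19) from 6, and the locus of orf191 had 2.52 FPKM (0.999 to 4.03) from 11, and all 3 were listed at 0 in input. The locus GRMZM5G854065 (Mt:58744-59348), which holds no reference gene, was better covered, with 16.5 FPKM in RIP (12.1 to 20.9) from 57 fragments and 12.2 FPKM in input (4.47 to 19.9) from 10. Other named orf loci were that of orf115-b, orf396 and orf342, with 2.55 FPKM in RIP (1.81 to 3.30) and 8.61 FPKM in input (5.30 to 11.9), and that of orf1159, with 1.82 FPKM in RIP (1.30 to 2.34) and 0.733 FPKM in input (0.0774 to 1.39). The named orf loci thus lay on both sides by FPKM.

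Some repeated orfs cannot be separated. The loci of orf106-a1 and orf106-a2 had the same values as each other in both libraries, at 1.61 FPKM in RIP and 5.94 FPKM in input. In input orf158-a1 and orf158-a2 were both at 3.17 FPKM, while in RIP they were at 0.676 FPKM (0 to 1.55) and 3.11 FPKM (1.24 to 4.99).

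Pairs of single loci with a reciprocal overlap of at least 0.5 gave a comparison by FPKM that does not use implied fragments. There were 104 mitochondrial pairs, 93 of them with identical ends, and 43 had a mean FPKM of at least 1. On the scale of log2(FPKM + 1), 20 of the 43 were at least 2-fold lower in RIP, beside 95.6% of all maize pairs, and 5 were at least 2-fold higher, beside 1.05%. These 5 were the pairs at 0 in input, so they passed the filter through RIP alone and no enrichment is read from them. Another 3 of the 43 were at 0 in RIP and passed through input alone. The median log2 ratio was -0.69 (quartiles -1.65 and 0.35), beside -2.06 (-2.71 and -1.64) over all 9066 pairs. Set against that median, 24 of the 43 exceeded it by 2-fold or more, where 4.9% of all pairs did, and 4 were lower than it by 2-fold or more, where 16.9% of all pairs were. The deposited limits of RIP and input did not overlap in 20 of the 43, of which 5 were higher and 15 lower in RIP. Among those 5, only cox3 was above 0 in both libraries, and the 15 include orf302, at 0 in RIP. A value of 0 had limits of 0 to 0, which leave out its counting error, so limits apart from it show no difference. Mitochondrial FPKM was thus lower in RIP than in input at the median, but less so than for all pairs.

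**Figure D3:**
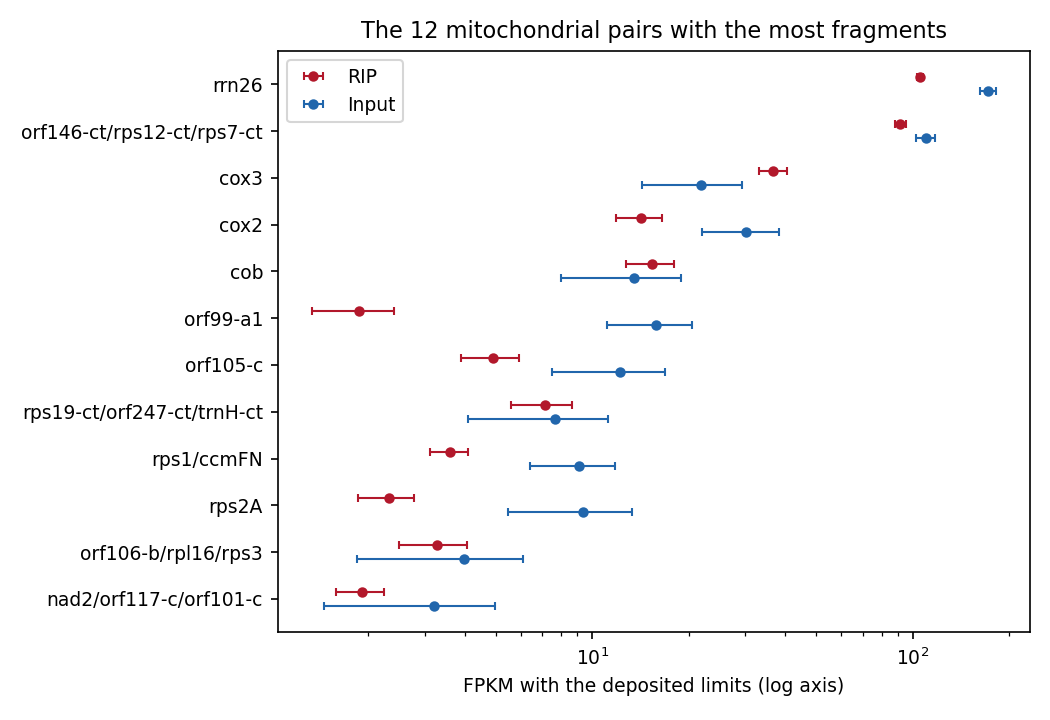
FPKM (horizontal, log axis) with the deposited lower and upper limits for the 12 mitochondrial pairs with the most fragments, labelled by up to 3 genes held by the RIP locus, in RIP and input (1 library each). The limits lie apart with RIP higher for cox3 only, and they overlap for cob, nad2, the rps19-ct locus and the rpl16 locus.

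By implied fragments, mitochondrial pairs chosen by their fragments instead of by FPKM were higher in RIP. Of 29 mitochondrial pairs with 20 or more fragments, 24 exceeded the median over all 4427 pairs by 2-fold or more, where 24.2% of all pairs did, and 0 were lower than it by 2-fold or more, where 20.6% of all pairs were. The median log2 fragment ratio was 2.19 (0.95 and 2.70), beside -0.29 (-1.12 and 0.66) over all pairs and -0.49 over nuclear pairs assembled in both libraries. The direction relative to all pairs was the same by FPKM and by fragments, whereas the sign of the ratio itself was not. The pairs compared were not the same on both scales.

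The scale of FPKM was not the same for all loci of the RIP table, which bears on these comparisons. In loci of 600 bp to under 1200 bp, 1 FPKM and 1 kb stood for a median of 9.46 fragments at mitochondrial loci and 11.05 at nuclear assembled loci of RIP, but for 71.6 at nuclear annotated loci. In input the same medians were 1.56, 1.47 and 1.26. The median over all pairs therefore includes nuclear annotated loci with far more fragments per FPKM in RIP. Mitochondrial loci were close to nuclear assembled loci at this span. At 1200 bp to under 3000 bp they were not, with 12.3 against 23.2 in RIP and 1.82 against 1.11 in input. Why the scales differ was not tested.

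**Figure D4:**
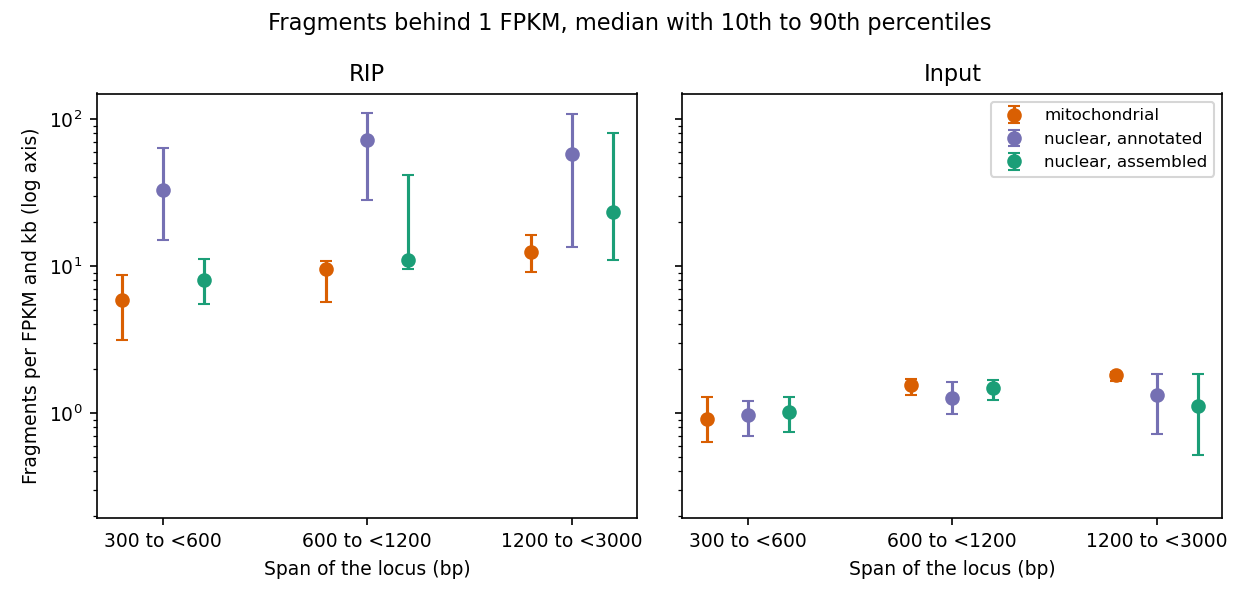
Fragments per FPKM and kb (vertical, log axis) by span of the locus (horizontal) in RIP and input, as medians (points) with 10th to 90th percentiles over loci with 3 or more whole fragments. From 600 bp to under 1200 bp nuclear annotated loci of RIP lie at 71.6, mitochondrial loci at 9.46 and nuclear assembled loci at 11.05, whereas the 3 kinds lie between 1.26 and 1.56 in input.

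Annotated and assembled loci held very different parts of the mitochondrial fragments. In RIP, 68 loci had an annotated identifier and held 4.54% of the mitochondrial fragments (4.23% to 4.87%), 22 were assembled loci with the ends of an annotated gene and held 0.956%, and 42 other assembled loci held 94.5% (94.1% to 94.9%). In input, 103 annotated loci held 12.4% (11.3% to 13.6%), 7 assembled loci with the ends of an annotated gene held 1.62%, and 29 other assembled loci held 85.9% (84.7% to 87.1%). The other assembled loci were longer in RIP, with a median span of 2006 bp against 810 bp in input. Annotated loci had a median span of 400.5 bp in RIP and 396 bp in input. Altogether mitochondrial loci above 0 covered 153881 bp in RIP and 92673 bp in input without the 93343-bp locus, which is 104 and 33.9 fragments per kb.

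The annotated loci were also more often at 0, being above 0 at 42 of 68 in RIP and at 38 of 103 in input. Among pairs, the median log2 FPKM ratio was -1.10 (quartiles -2.55 and 0.23) for the 20 pairs with an annotated identifier in both libraries and -0.53 (-1.30 and 0.35) for the other 23. The quartiles of these groups overlapped widely.

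Along the mitochondrial sequence, fragments were concentrated in the same 2 windows of 50 kb in both libraries. The ninth window, with rrn26, held 61.0% of the mitochondrial fragments in RIP and 42.1% in input. The seventh, with the chloroplast-like locus, held 16.8% and 28.2%. The other 10 windows held 0.568% to 5.85% each in RIP and 0.218% to 5.84% in input. Every window had more fragments in RIP than in input, from 1.24 times in the eighth, with cox1 and the midpoint of the 93343-bp input locus, to 19.1 times in the last, with nad6. When the locus with the most fragments was left out of each window, the last window had none left in either library.

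**Figure D5:**
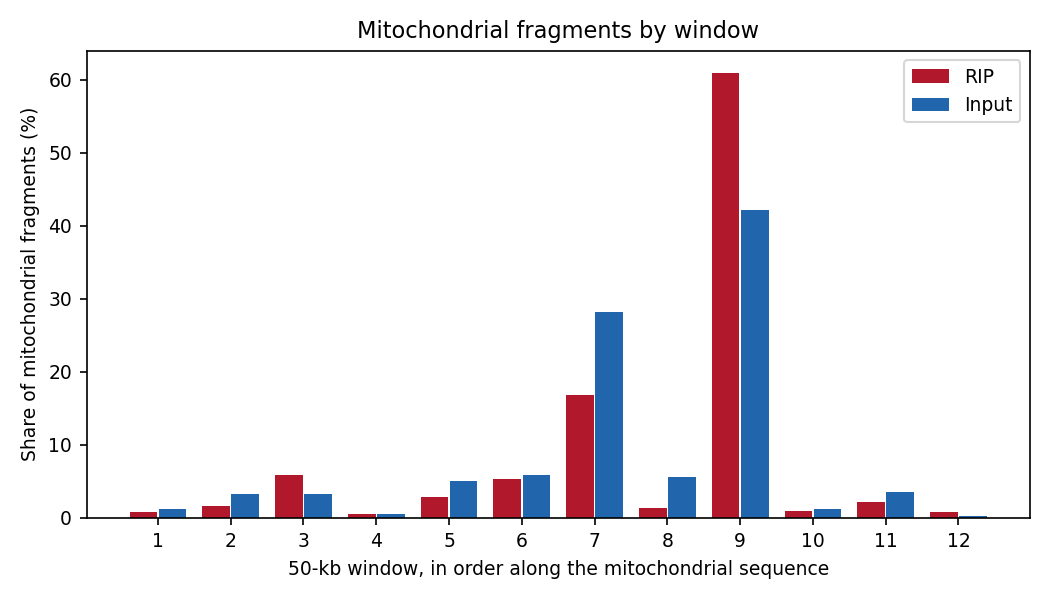
Share of each library's mitochondrial fragments (vertical, %) in windows of 50 kb (horizontal, in order along the mitochondrial sequence), assigned by the midpoint of each locus, with 1 library each. The ninth window holds 61.0% in RIP and 42.1% in input, the seventh 16.8% and 28.2%, and no other window exceeds 5.85%.

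Loci above 0 in 1 library only were commoner in RIP. Of 63 mitochondrial RIP loci with 10 or more fragments, 16 (25.4%) overlapped no input locus above 0, beside 18.3% of all RIP loci of that size. Of 47 such input loci, 2 (4.26%) overlapped no RIP locus above 0, beside 15.1% of all input loci. Without the 93343-bp input locus as a possible partner the RIP count was 20. None of the RIP loci had 50 or more fragments.

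Among the 6 RIP loci of this kind with the most fragments, 3 held a reference gene. The first, at Mt:368702-371463, is one of those counted only when the 93343-bp input locus is ignored. It holds orf117-d and had 0.907 FPKM (0.581 to 1.23) from 31 fragments, and input listed a shorter locus inside it at 0. The next, at Mt:547820-548725, holds no reference gene and had 2.43 FPKM (1.44 to 3.42) from 24. The locus at Mt:93486-94825 holds trnK, a tRNA gene for lysine, and had 1.42 FPKM (0.825 to 2.01) from 23. At the places of these last loci input listed nothing.

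The loci that followed had similar values. The locus at Mt:442888-445011, next to cox3, was at 0.793 FPKM (0.455 to 1.13) from 22 fragments. The locus at Mt:141798-143940, next to the atp4 region and with orf119-a, had 0.836 FPKM (0.462 to 1.21) from 20. The locus at Mt:425312-426769 had 1.00 FPKM (0.529 to 1.47) from 18. All of them were thus near 1 FPKM or below.

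In input, the only such locus besides rrn18 was at Mt:509344-509781, beside the nad2 region and without a reference gene, and had 43.1 FPKM (23.8 to 62.4) from 20 fragments. RIP listed no locus at either place, so its level there is not known. Where input listed a locus at 0, a count of 0 allows up to 3 fragments.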

How the data were processed

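Each library came as 1 table of FPKM per locus with lower and upper limits, deposited by the authors. The submitters' processing notes name CASAVA, TopHat2 2.0.12 and Cufflinks, with no Cufflinks version given in the sources used here. The build was B73 RefGen_v4. The FPKM values are those the authors computed. Assembled loci carry "filt" in their names, for a filter that is not described. In the table of the sample titled B73-RIP their names begin with B73-RAC, which the labels do not explain, and the table was taken as RIP because it is assigned to that sample.

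Members and lists were chosen with earlier results of these data known. Implied fragments were (2 × FPKM/(upper limit − FPKM)) squared, and came within 0.02 of a whole number at 69.4% of mitochondrial loci above 0 in RIP and 58.6% in input, so the others are estimates. Reads without molecular identifiers are not independent molecules. Starts were shifted by 1 to count from 1. Pairs shared an identifier, their ends or a reciprocal overlap of 0.5, needed a mean FPKM of 1 and used a pseudocount of 1 FPKM. Fragment ratios of pairs used 20 fragments and a pseudocount of 0.5. Regions merged overlapping loci up to 20 kb long, and these were chosen after seeing the data, as were the alternatives on chloroplast-like and long loci. Region ratios have exact binomial intervals, and shares have Wilson intervals. Named were the 12 pairs with the most fragments, the 6 highest and 6 lowest ratios, up to 6 loci of each library seen in it only, and the annotated named loci up to 30 by mean FPKM, with regions of known genes named after their values were seen. The calculations were made in Python with pandas and SciPy. In simulated tables most set changes were called in the right direction. Implied fragments were recovered there because the simulated limits came from the same formula. This does not show that the deposited limits follow it. The alternatives were another pseudocount, filter, scaling, overlap, span, fragment minimum and window. No sequence is shown.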

Additional observations from a re-analysis of the deposited data

Results flagged for a closer look

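These loci entered no pair, each with more than the 3 fragments that a count of 0 allows. The input locus of rrn18 had 82.2 fragments where RIP listed no locus. The RIP locus at Mt:547820-548725 had 24 fragments where input listed none. The input locus of 93343 bp, which entered no region, had 73.1 fragments.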

How the results depend on the processing

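The 24 of 43 pairs above the common median by 2-fold or more became 37 with a pseudocount of 0.1 FPKM and 38 after scaling RIP to the same FPKM sum or to the same upper quartile. The count below, 4, was 12 without a filter and 0 by fragments. The median log2 ratio of -0.69 became positive without a filter (0.27), at the same sum (3.07), at the same upper quartile (3.72) and by fragments (2.19). The median of all pairs then moved from -2.06 to -0.58, -0.44, 0.06 and -0.29. Relative to it, the mitochondrial median of 1.37 was 3.04 with the lower pseudocount, 3.51 at the same sum, 3.66 at the same upper quartile, 2.48 by fragments and 2.67 by fragments against nuclear assembled pairs, above 0 in every alternative run. Without a filter the medians of annotated and other pairs were 0.32 and 0.077. The causes were not tested.

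The shares of 3.38% and 0.432% became 3.56% and 0.857% without the top locus of each library, 3.97% and 0.452% over loci of 10 or more fragments, and 0.914% and 0.150% without rrn26 and chloroplast-like loci. With 50 or more fragments, loci seen in RIP only numbered 0 and in input only 1. The highest windows of 25 kb held 58.0% and 40.4%. No paired analysis was possible because each group is 1 library. Depth limits both libraries, with medians of 13.2 fragments per mitochondrial locus above 0 in input and 14 in RIP.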
